A study of Vachellia cornigera with 24 samples.

Results

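Extrafloral nectaries to which gut contents had been applied were compared with nectaries of plants kept without ants for 2 days, in the bullhorn acacia, Acacia cornigera. The comparison rests on 5 of the 24 RNA libraries of the series, 2 with gut contents applied and 3 with ants removed, grouped by their labels. An extrafloral nectary is a gland outside the flower that secretes sugary nectar, and in this acacia the nectar feeds resident ants of the species Pseudomyrmex ferrugineus, which guard the tree. The other ant treatments are used for context: 3 libraries labelled Gracilis replacement, 1 library in which ants were replaced after 2 days (returned ants, labelled 9 am), and 3 libraries from 8 am that served as controls. All of these libraries came from plants in the field at 1 place and in 1 month, and each pooled nectaries of different plants, so a library is a pool and not a plant. The labels do not say which animal gave the gut contents, how they were applied, whether ants were present on those plants, or at what hour the gut contents and ants removed nectaries were picked. The series text says that samples were taken in triplicate and that some failed quality control. No label gives the plants' genotype or age.

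Suberin is a polyester of fatty acids, glycerol and ferulic acid that plants lay down in cell walls to make them resist water, solutes and microbes; it lines root endodermis, bark and healed wounds. Its monomers are made by cytochrome P450 enzymes of the CYP86 group and by glycerol phosphate acyltransferases, joined to ferulate by an acyltransferase, and carried out of the cell by ABC transporters of the ABCG group. Hydroxyproline-rich glycoproteins and extensins are structural proteins of the cell wall, and dirigent proteins steer the coupling of phenolic units such as those of lignin and lignans. These roles were worked out mostly in Arabidopsis thaliana, whose locus names the deposited table gives to the acacia genes.

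The values are the authors' normalised counts, on a scale whose unit is not stated. They summed to 26575678 and 27582060 in gut contents samples 1 and 2 and to between 26015365 and 27077145 in the 3 ants removed samples, and between 171 and 249 of the 12650 genes were listed at 0 in these libraries. SWEET9 and CWINV4, used here as nectary markers, were present in every library of both groups. Ants removed samples 2 and 3 were nearly the same: across genes they correlated at 0.993 on the log2 scale, and their difference, set against counting noise at 1 read per unit (index 1), had an index of 2.01 for genes with means of 20 to 200. The 2 gut contents samples correlated at 0.960, and each lay nearer to a library of another treatment than to the other. Among the 9 ant treatment libraries, 6 pairs that both carry the number 1 correlated at 0.974 to 0.984, 10 pairs without a number 1 at 0.975 to 0.993, and 20 mixed pairs at 0.958 to 0.974. The number of the sample thus moved with the values across treatments, and the labels do not say what it stands for.

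**Figure D1:**
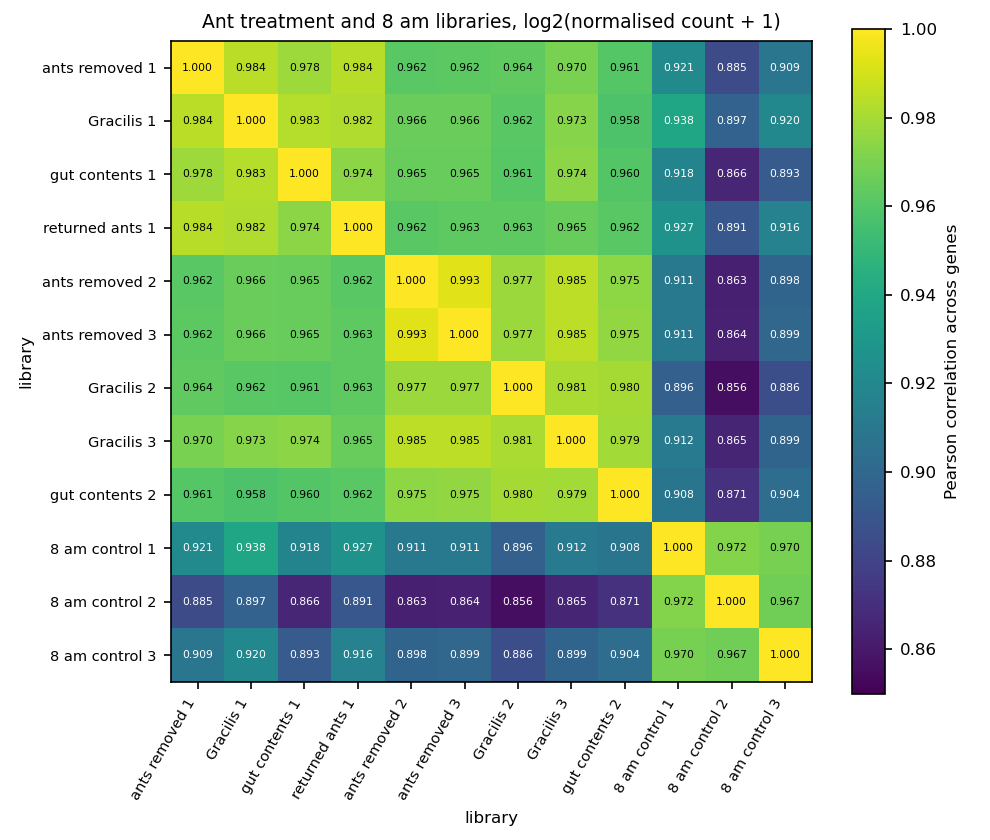
Pearson correlation across the 12264 genes tested, on log2(normalised count + 1), between the 12 libraries of the ant treatments and the 8 am control (both axes: library). Libraries numbered 1 form a block of their own, ants removed samples 2 and 3 correlate at 0.993, and gut contents sample 1 lies closer to Gracilis sample 1 (0.983) than to gut contents sample 2 (0.960).

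The question of the comparison was which transcripts of the nectary differ between application of gut contents and absence of ants. Few passed the test. With so few libraries, that does not show that few transcripts differ. Of 12264 genes tested, 8 (0.0652%) were called, all 8 lower with gut contents (limma's moderated test on log2(normalised count + 1), all 24 libraries in 1 fit, adjusted over all genes by the method of Benjamini and Hochberg, threshold 0.05). The called genes encode 2 hydroxyproline-rich glycoproteins, an extensin-family protein, a dirigent-like protein, 2 suberin proteins (ASFT and ABCG6), a GDSL lipase and a protein of unknown function. No gene was called higher, while 24 (0.196%) were higher and 87 (0.709%) lower at an unadjusted p under 0.05 in limma. The groups did not overlap in 1276 genes (10.4%), 513 that were lower (4.18%) and 763 that were higher (6.22%), and the median difference over all genes was 0.03 on the log2 scale.

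The 8 calls rest on how the libraries are counted. With ants removed samples 2 and 3 taken as 1 library, or without sample 2, or without sample 3, limma called 0 genes, against 9 without ants removed sample 1, 1 without gut contents sample 1 (none of the 8) and 4 without gut contents sample 2 (3 of the 8). A fit of the ant treatments and the 8 am control alone called 3 genes, all lower, of which 2 are among the 8, and a fit of the 2 groups alone called 0, with a smallest adjusted p of 0.614. Quantile normalisation of all 24 libraries also gave 0 calls, with a smallest adjusted p of 0.0645. The direction of all 8 genes was the same in every alternative run. Every run used these same libraries, where both gut contents values lay below all ants removed values in each of the 8. A constant direction was therefore close to fixed and is no separate support. The log2 change of AT5G09530 was -5.17 with samples 2 and 3 as 1 library, beside -5.45. Nothing in the labels shows that the libraries of a group came from separate plots or days. The p-values thus measure the spread between pools within groups, which the main fit takes from all 24 libraries.

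**Figure D2:**
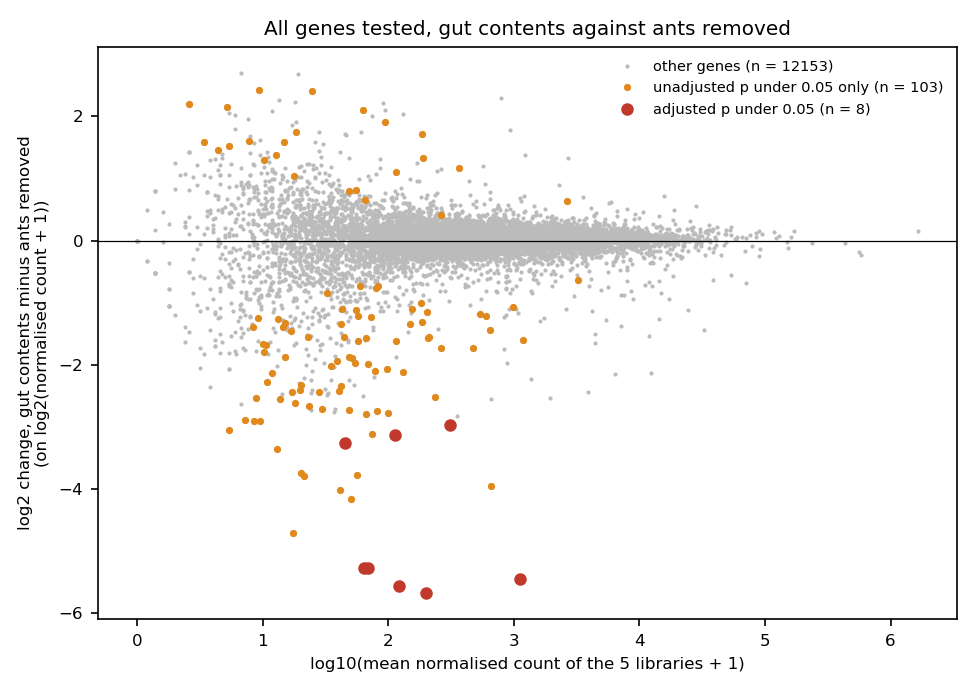
Difference between gut contents and ants removed on log2(normalised count + 1) (vertical) against the mean normalised count of the 5 libraries plus 1 on a log10 scale (horizontal), 1 point per gene tested. The 8 called genes, in red, all lie below 0, between -5.67 and -2.97; 103 further genes, in orange, have an unadjusted p under 0.05 alone.

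Hydroxyproline-rich glycoproteins of the cell wall come first. AT5G09530, a hydroxyproline-rich glycoprotein, stood at 26 and 49 normalised counts in gut contents samples 1 and 2 and at 723, 2473 and 2326 in ants removed samples 1 to 3. The groups lay far apart, with means of 37.5 ± 16.3 (SD, n = 2) and 1841 ± 971 (SD, n = 3). It was lower by a log2 change of -5.45 ± 0.76 (SE; 95% confidence interval -7.06 to -3.85; limma adjusted p = 0.0164). This gene was named after its values were seen, since the rule for named genes takes 1 gene per description and had taken the next. AT5G09520, of the same description, stood at 3 and 8 with gut contents and at 168, 383 and 440 with ants removed, a log2 change of -5.67 ± 0.96 (limma adjusted p = 0.0355). In Arabidopsis these are neighbouring members of 1 family, and how the authors' counting divided reads between near-identical copies is not stated in the labels, so the separate values are uncertain. Another gene of this description, AT4G38080, showed the same order without a call: 39 and 94 with gut contents against 498, 1384 and 1259 with ants removed (limma adjusted p = 0.216). It too was named after its values were seen. How the remaining genes of this description moved is not given, so nothing is said of the family.

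AT5G47635, of the pollen Ole e 1 allergen and extensin family, was listed at 0 in gut contents sample 1 and at 6 in sample 2, against 50, 133 and 153 with ants removed. Its log2 change was -5.26 ± 0.86 (limma adjusted p = 0.0294). The dirigent-like gene AT2G21100 stood at 0 and 12 with gut contents and at 69, 266 and 259 with ants removed, with a log2 change of -5.55 ± 0.89 (limma adjusted p = 0.0294). For these genes, with a 0 in a library, the size of the log2 change depends on the value added before the logarithm: with 10 in place of 1 it was -3.14 for AT5G47635 and -3.60 for AT2G21100. Another dirigent-like gene, AT1G64160, had 10 and 12 against 48, 141 and 159 and was not called (limma adjusted p = 1.0). This gene was named after its values were seen, and how other dirigent-like genes moved is not given.

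Suberin genes were the one gene list whose members were called. ASFT (AT5G41040), the acyltransferase that joins ferulate to suberin monomers in Arabidopsis, stood at 50 and 57 with gut contents and at 201, 617 and 622 with ants removed. Both gut contents libraries lay close together, and the lowest ants removed value, in sample 1, was still above both. The log2 change was -2.97 ± 0.46 (95% confidence interval -3.93 to -2.02; limma adjusted p = 0.0259). ABCG6 (AT5G13580), an ABC transporter needed for suberin barriers in Arabidopsis roots and seed coats, stood at 6 in each gut contents library against 40, 78 and 92, a log2 change of -3.26 ± 0.57 (limma adjusted p = 0.0417). 

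Of 16 genes on the suberin list, 6 are in the table and were tested. All 6 were lower, beside 5108 of all 12264 genes tested, and 2 were called. In limma, 5 of the 6 had an unadjusted p under 0.05, against 0.709% of all genes that were lower at that level. CYP86A1, the fatty acid hydroxylase of root suberin, had 4 and 2 against 37, 71 and 88 (log2 change -4.01 ± 0.90), with a limma adjusted p of 0.285. GPAT5, the acyltransferase that links these acids to glycerol, had 43 and 156 against 119, 373 and 336 (log2 change -1.57), and the groups overlapped. CYP86B1, the hydroxylase for longer fatty acids, overlapped too, with 40 and 164 against 102, 210 and 252. The fatty acyl reductase FAR1 was at 4 or less in all 5 libraries. The list's median log2 change was -2.27 beside 0.03 for all genes, and -1.72 between the libraries numbered 1 and -2.71 between those numbered 2. Summed over the list, normalised counts were 147 and 385 with gut contents and 501, 1352 and 1392 with ants removed. They were 622, 872 and 654 for Gracilis and 1696, 1551 and 1177 at 8 am, where CYP86B1 alone gave 901, 686 and 613. This list was drawn up with earlier results of these libraries known, and its count is not independent evidence of a direction.

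AT1G74460 encodes a GDSL lipase, of a family whose members act on lipid esters, some of them in building or breaking down suberin in Arabidopsis. It stood at 2 and 1 with gut contents and at 46, 129 and 137 with ants removed (log2 change -5.27 ± 0.95, limma adjusted p = 0.0453). AT4G24130, a DUF538 protein of unknown function, stood at 11 and 27 against 83, 237 and 206 (log2 change -3.13 ± 0.56, limma adjusted p = 0.0453). These mark the edge of the calls. The next gene by p, AT2G31110, a trichome birefringence-like protein of a family that acetylates wall polysaccharides, was listed at 0 in both gut contents libraries against 13, 39 and 31 with ants removed, and its adjusted p was 0.0634.

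In all 8 called genes, ants removed sample 1 was the lowest of its group, and among the ant treatments gut contents held the lowest values. All 3 Gracilis libraries lay above both gut contents libraries in 8 of 8 genes, and the returned ants library lay within the range of ants removed in 8 of 8. The 8 genes were picked for low values in these same gut contents libraries, so this order follows in part from their choice. The share of all genes with this order is not given, so these counts describe the 8 genes and nothing wider. AT5G09530, for example, stood at 565, 1137 and 637 for Gracilis and at 1019 with returned ants. ASFT stood at 232, 386 and 212 for Gracilis and at 360 with returned ants. Gut contents against Gracilis gave no call in limma (0 of 12264; 72 genes, 0.587%, at an unadjusted p under 0.05, with 0.448% of all genes lower at that level; smallest adjusted p 0.232). All 8 genes were among those lower at that level, which follows in large part from their choice by low values in the same gut contents libraries. Leaving out gut contents sample 2 gave 1 call in that comparison.

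Set against the 8 am control, the called genes fell into more than 1 pattern. For AT5G09530 the control libraries stood at 91, 39 and 126, near gut contents and far below ants removed. Gut contents differed from 8 am by a log2 change of -1.08 (limma adjusted p = 0.330), and ants removed by 4.37 (limma adjusted p = 0.000284). AT5G09520 and AT1G74460 had the same arrangement, with control libraries at 13, 14 and 52 and at 2, 4 and 27. ASFT was arranged otherwise: its 8 am libraries, at 343, 489 and 237, lay among those with ants removed (log2 change 0.32, limma adjusted p = 0.594), and gut contents was lower than 8 am by a log2 change of -2.65 (limma adjusted p = 0.000853). AT5G47635 (66, 205 and 114 at 8 am) and AT4G24130 (130, 108 and 84) were arranged as ASFT was. AT2G21100 (17, 43 and 42) and ABCG6 (22, 17 and 29) lay between the treatments and differed from 8 am in both, lower with gut contents (limma adjusted p = 0.0171 and 0.0374) and higher with ants removed (limma adjusted p = 0.0335 and 0.0326). These comparisons share libraries and cannot be read as separate evidence. As background, gut contents against 8 am called 2702 of 12264 genes (22%; 12.9% were lower) and ants removed against 8 am 3368 (27.5%; 11.6% were higher and 15.9% lower), against the 8 between them. These counts rest on single libraries too: the first was 920 without gut contents sample 1, 1630 without sample 2 and 1515 without 8 am sample 2. The latter was 2148 and 2128 without ants removed samples 2 and 3, and 1955 without 8 am sample 2. Quantile normalisation turned the balance, to 1440 higher and 1153 lower for gut contents and 1974 higher and 1523 lower for ants removed.

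**Figure D3:**
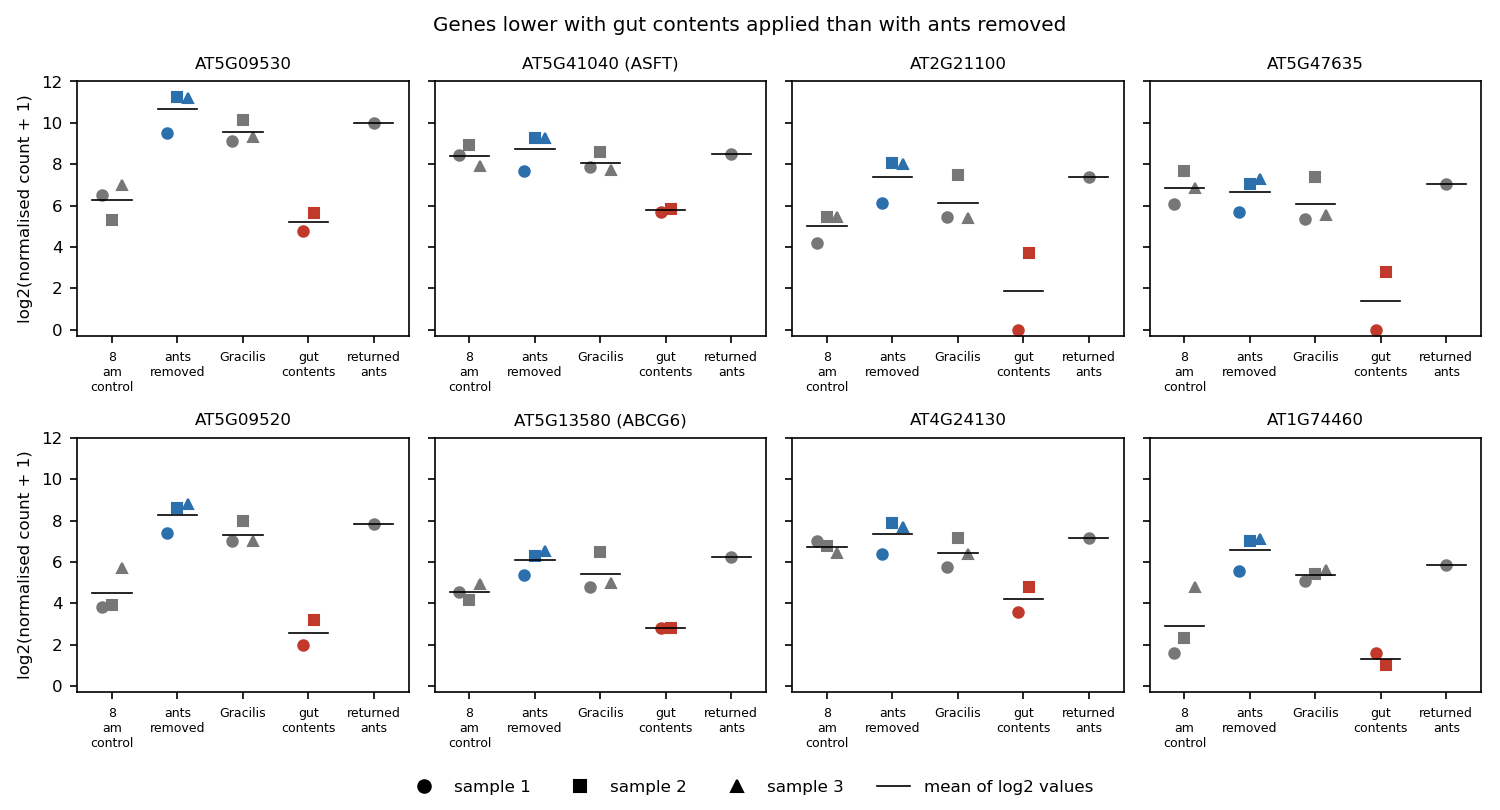
The 8 called genes, log2(normalised count + 1) per library (vertical) by group (horizontal); marker shape gives the sample number and the bar the mean of the log2 values. Both gut contents points (red) lie below all 3 ants removed points (blue) and all 3 Gracilis points in each panel. This order follows in part from the choice of these genes by low gut contents values. The 8 am points lie near gut contents for AT5G09530 and near ants removed for ASFT.

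After suberin, the lists of cell cycle and wall loosening genes had the lowest medians, and none of their genes passed the test. KNOLLE, the syntaxin that fuses vesicles into the new wall of a dividing cell, stood at 5 and 6 with gut contents and at 33, 31 and 68 with ants removed (log2 change -2.70, limma adjusted p = 0.539). CYCB1;2, a mitotic cyclin, stood at 24 and 35 against 64, 97 and 110. CDKB2;1, a mitotic kinase, had 13 and 37 against 50, 121 and 120, and TSO2, a ribonucleotide reductase subunit, had 11 and 31 against 81, 71 and 75. The groups did not overlap in these 4 genes; on the whole list, 5 of 16 genes were lower without overlap, against 4.18% of all genes. Unadjusted p for the 4 lay between 0.00066 and 0.022. Subunits of the replication helicase did not share this: MCM2 stood at 208 and 224 against 234, 223 and 177, and MCM7 at 118 and 178 against 104, 131 and 130. Over the 16 cell cycle genes tested the median log2 change was -0.41, or -0.24 without the 2 genes listed at 0 throughout gut contents, beside 0.03 for all genes. In the wall loosening list, 9 of 9 genes were lower with gut contents, beside 5108 of all 12264 genes tested. The count was 8 of 8 without EXPA5, which was listed at 0 in both gut contents libraries. The list's median was -0.30, and XTH4 (8 and 16 against 50, 52 and 45) and EXPA6 (68 and 162 against 241, 401 and 437) had an unadjusted p under 0.05. Between libraries numbered 2 the list's median was -0.02, and between those numbered 1 it was -0.77. At 8 am, XTH4 stood at 510, 1351 and 335, above every ant treatment.

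Higher values with gut contents were smaller in size and none passed the test; the 5 with the smallest p are given as values. AT5G20740, of the invertase and pectin methylesterase inhibitor family, stood at 136 and 182 with gut contents and at 17, 75 and 53 with ants removed (log2 change 1.92, limma adjusted p = 0.889). AT3G20180, a copper transport protein, had 154 and 184 against 103, 75 and 61. AT3G44220, a LEA hydroxyproline-rich glycoprotein, had 160 and 459 against 136, 93 and 97 (log2 change 1.33). In each of these the groups did not overlap. AT5G64700, a transporter of the MtN21/EamA family, had 34 and 52 against 1, 11 and 21, and AT1G75620, related to glyoxal oxidase, had 22 and 25 against 10, 6 and 6. At 8 am these genes stood higher than with ants removed, for example AT3G20180 at 374, 451 and 429 and AT1G75620 at 86, 143 and 90. They were picked for low values in the same ants removed libraries, so this order is a description.

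No difference was called in the genes of nectar making, and the intervals show how wide a difference these libraries leave. SWEET9, the transporter that exports sucrose in floral nectaries of other plants, stood at 178615 and 286605 with gut contents and at 148801, 287499 and 290122 with ants removed. Sample 1 was the lowest in each group. The log2 change was -0.03 (95% confidence interval -1.72 to 1.66). CWINV4, a cell wall invertase required for nectar secretion in Arabidopsis flowers, had 6973 and 19730 against 8579, 12606 and 12742 (log2 change 0.08, 95% confidence interval -0.88 to 1.03), while 8 am stood at 69379, 99011 and 88628. CWINV2, of the same family, had 1049 and 2848 against 1145, 1888 and 1804. SPS1F, a sucrose phosphate synthase, had 12422 and 7454 against 11525, 9132 and 9099, with a narrower interval of -0.52 to 0.45 around a log2 change of -0.04. SWEET11, a sucrose exporter of leaf phloem, had 688 and 908 against 128, 587 and 541 without overlap (95% confidence interval of the log2 change -0.30 to 2.69, limma adjusted p = 1.0). The median of the 29 sugar genes tested was -0.04.

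Nectary regulators and clock genes gave no call either. BOP1, a regulator needed for nectaries in Arabidopsis, stood at 183 and 211 against 124, 186 and 140 (log2 change 0.41, 95% confidence interval -0.31 to 1.13). PIN6, an auxin transporter of nectaries, stood at 16 and 66 against 52, 48 and 42. The hours at which these groups were picked are not labelled, so the clock genes also serve to set the groups side by side. LHY, a morning gene of the clock, stood at 173495 and 149139 with gut contents and at 107866, 186662 and 183608 with ants removed. TOC1, an evening gene, stood at 1938 and 1266 against 2075, 1472 and 1562. GI, an afternoon gene, stood at 1025 and 957 against 362, 1018 and 938, all far below its 4347, 3068 and 4364 at 8 am. The groups overlapped for LHY, TOC1 and GI, and in GI only ants removed sample 1 lay far from the other values. The medians were 0.02 over 8 morning genes and 0.00 over 9 evening genes. They were 0.49 and 0.02 between the libraries numbered 1, and -0.07 and -0.09 between those numbered 2.

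Defence genes were examined because gut contents can carry microbes and insect material. PR1, a marker of salicylate signalling, stood at 1221 and 6147 with gut contents and at 641, 4270 and 4585 with ants removed. In each group sample 1 was several-fold below the rest, and the log2 change was 0.24 (95% confidence interval -1.57 to 2.05). The glucanase BGL2 had 1328 and 2420 against 1019, 1873 and 1960. PR4, a chitin-binding protein, had 8738 and 10882 against 9284, 8370 and 7676, with an interval of -0.23 to 0.66. Over the 21 salicylate and pathogenesis-related genes tested, 17 were higher and 4 lower, none called, at a median of 0.13. Of all 12264 genes tested, 7148 were higher. The median of these 21 genes was 0.32 between the libraries numbered 1 and 0.06 between those numbered 2. TGA2, a bZIP factor that binds the salicylate co-activator NPR1, had the one unadjusted p under 0.05 in that list, at 18 in each gut contents library against 15, 5 and 3.

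In the jasmonate pathway, AOS, the enzyme at its start from fatty acid hydroperoxides, stood at 9200 and 11521 against 7634, 8300 and 8362, without overlap and without a call (log2 change 0.35, 95% confidence interval -0.51 to 1.21). JAZ1, a repressor of the pathway, had 32825 and 51828 against 38034, 35247 and 35463, and MYC2, its main transcription factor, had 36965 and 24396 against 27552, 32053 and 31753. BAK1, the co-receptor of many immune receptors, had 6024 and 5142 against 4878, 5815 and 6015 (log2 change 0.01, 95% confidence interval -0.55 to 0.56). Among enzymes of phenolic metabolism, PAL1 stood at 73 and 98 against 146, 87 and 122, and CHS, chalcone synthase, at 10408 and 15607 against 8637, 9654 and 9388 (log2 change 0.47, 95% confidence interval -0.24 to 1.18). The groups did not overlap for CHS, which was not called. WRKY33 was not analysed here. 

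The most abundant transcripts, several of them for secreted proteins, showed no call. AT3G14300, a pectinesterase, stood at 1598718 and 1905202 with gut contents and at 1336341, 1701074 and 1720109 with ants removed. Osmotin 34 (AT4G11650) had 584052 and 417307 against 1034355, 431453 and 436534, and the barwin-related AT4G30380 had 409555 and 643544 against 741722, 518958 and 507366. In osmotin 34 sample 1 was the highest of each group, and the groups overlapped in both genes.

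**Figure D4:**
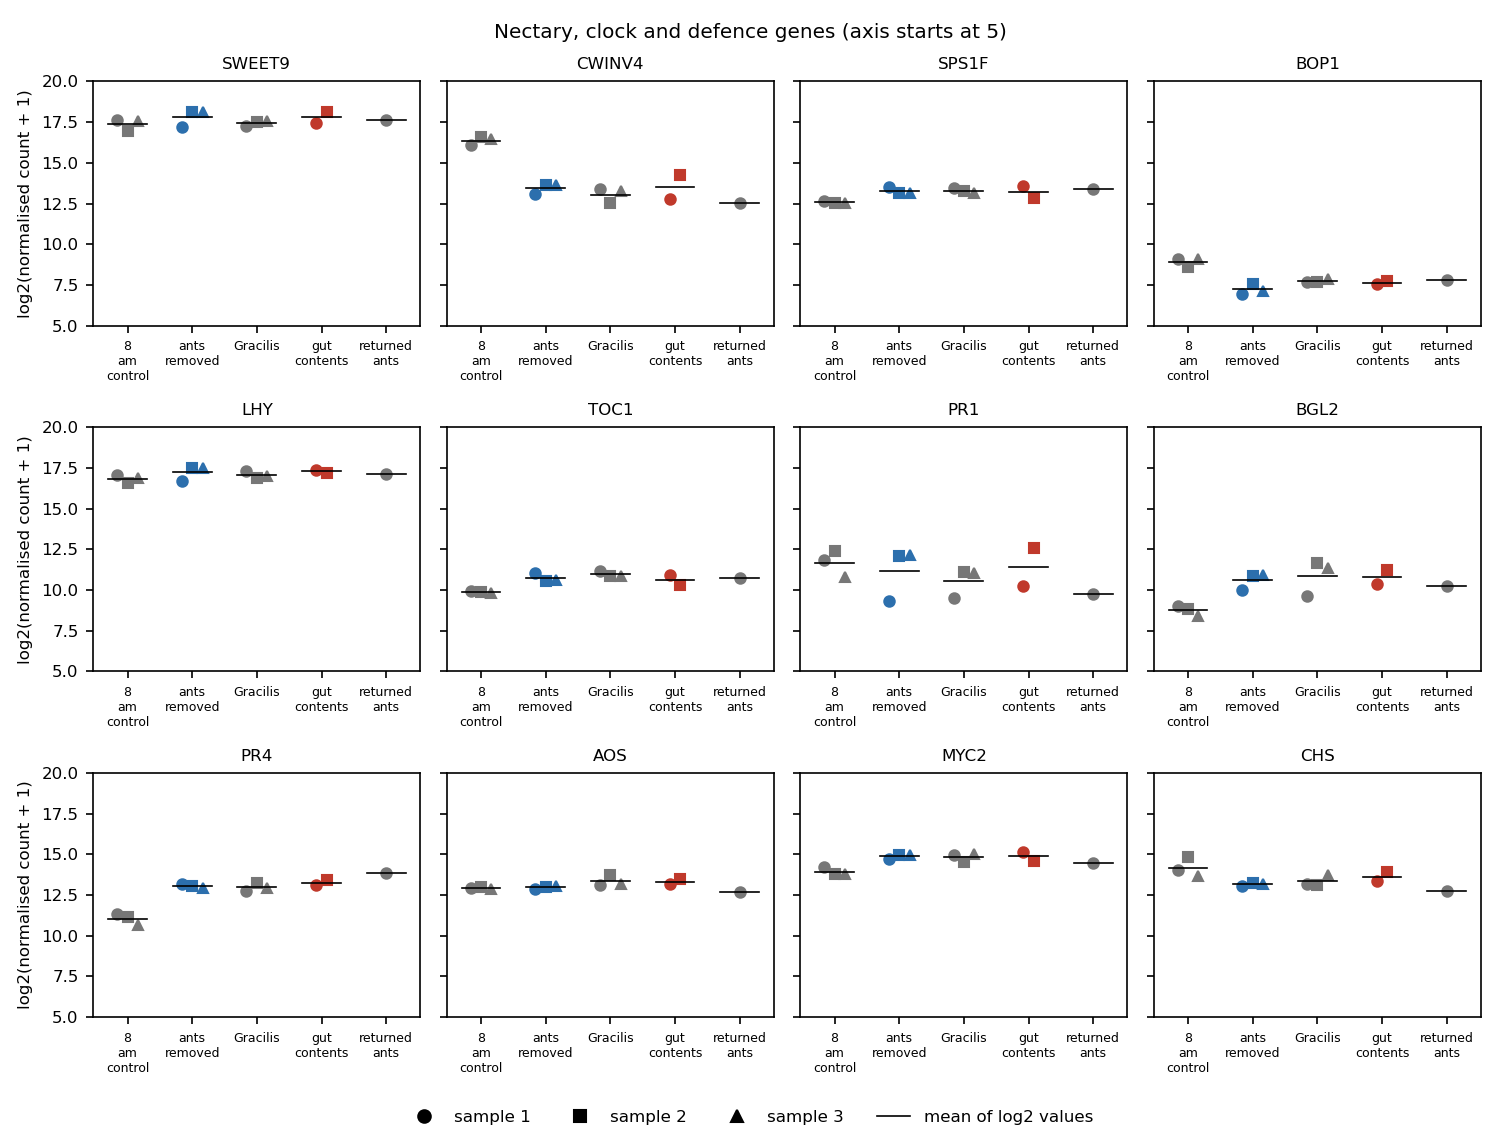
Nectary, clock and defence genes, log2(normalised count + 1) per library (vertical, starting at 5) by group (horizontal); marker shape gives the sample number and the bar the mean of the log2 values. Gut contents (red) and ants removed (blue) overlap in all panels but AOS and CHS, where both gut contents points lie higher. None of these genes was called. CWINV4, BOP1, TOC1 and PR4 show a wider gap to the 8 am control.

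Across 24 gene lists with 364 tested members, the 2 suberin genes were the only calls. The 21 lists other than suberin, cell cycle and wall loosening had medians between -0.06 and 0.26, the highest being phloem. Other tissues in the pools can be set side by side through their summed markers. Xylem and secondary wall markers (15 genes) summed to 6597 and 6838 with gut contents and to 6010, 7924 and 8356 with ants removed. Phloem markers (9 genes) summed to 7540 and 9062 against 7984, 7127 and 7069, and guard cell markers (7 genes) to 1439 and 1453 against 1270, 1687 and 1837. For cuticle and epidermis (16 genes) the sums were 18922 and 18861 against 15744, 20266 and 20268, and for photosynthesis (35 genes) 181667 and 215608 against 181253, 225375 and 226326. The ranges of the 2 groups overlapped in all 5 sums, and no marker was at 0 in all 5 libraries. The part of these markers in the called differences was not tested. In pooled tissue, fewer cells of a type and less RNA per cell cannot be told apart.

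**Figure D5:**
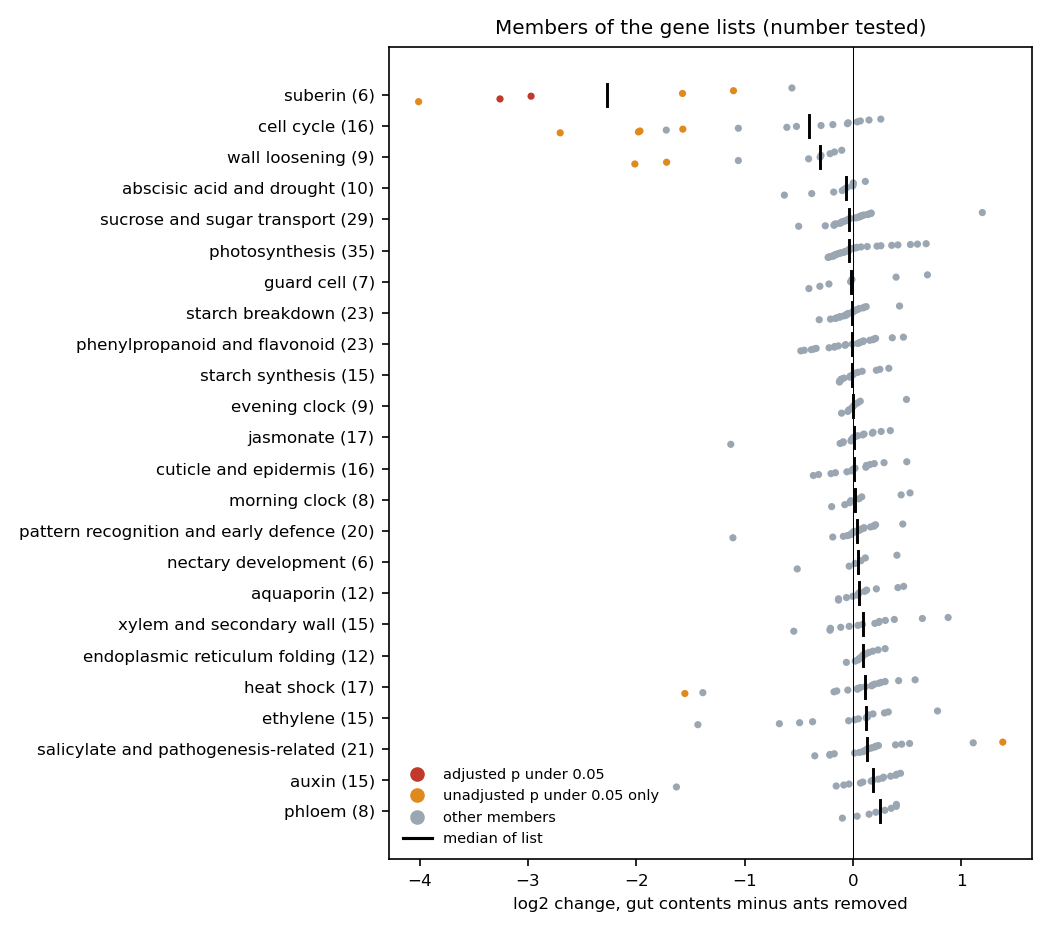
Log2 change of each tested list member, gut contents minus ants removed (horizontal), by list (vertical, with the number tested); the bar is the median. Suberin stands to the left with a median of -2.27 and the 2 called genes in red, cell cycle and wall loosening follow at -0.41 and -0.30, and the other 21 medians lie between -0.06 and 0.26.

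How much could have gone unseen varies between genes. The 95% interval of the log2 change had a median half-width of 0.62 (quartiles 0.45 and 0.94), and for 8488 genes (69.2%) the whole interval lay within 1 of 0, that is, within a 2-fold difference. The intervals take their spread from all 24 libraries and count ants removed samples 2 and 3 as separate. They would be too narrow if those samples came from 1 pool. On log2(normalised count + 1) the changes of low genes are also understated. With the deposited normalisation, 119 genes were higher and 277 lower by more than 1 on log2(normalised count + 1). With a mean of at least 50 in the higher group the counts were 31 and 116. In simulated data of the same 12264 genes, the test recovered 40% of 50 genes changed by 1 on the log2 scale and 88% of 50 changed by 3. The simulation changed 200 genes at once, which eases the adjusted threshold, and gave every library independent noise. The real libraries are not independent in this way, so these rates can overstate what the comparison would find.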

How the data were processed

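Nectary RNA was sequenced as 24 paired-end TruSeq libraries, per the labels' protocols. The authors deposited 1 table of normalised counts, a score of no stated unit, as whole numbers after their scaling. Per the file headers, each of 12650 genes carries an Arabidopsis locus and a description. Neither labels nor header give the scaling method, aligner, assembly, strand setting or depth, so no counting intervals are given. The table's 10 columns of the authors' group averages were not used. No sequences or coordinates were used.

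Values were tested on log2(value + 1), which understates the change of low genes. The filter was a mean of 10 or more across the libraries (12264 genes kept, 386 left out), with all 24 libraries and 10 groups in 1 limma fit with a mean-variance trend (limma 3.58.1 in R 4.3.3, with 14 residual degrees of freedom and 3.657 prior ones). The 10 groups share an estimate of the spread, since gut contents has 2 libraries. Tests were 2-sided, with Benjamini-Hochberg adjustment over all genes tested and a threshold of 0.05. In all, 4 comparisons were fitted. The fit was tested on simulated data, where 7 unchanged genes were called.

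The samples, the 24 gene lists (516 loci, 373 in the table, 364 tested) and the 15 gene families were chosen with earlier results of these data known. Families were taken by their descriptions or, for the organelle genomes, by their locus names. Named genes are the up to 15 largest falls and rises among the called ones, if the groups do not overlap and the higher mean is at least 50, 1 per description; the 5 smallest p in a direction with no call; up to 4 called members of each list; and a set of nectary, clock and defence genes. AT5G09530 and other genes given as values only were named after their values were seen: the list members that were not called, SWEET11, TGA2, AT4G38080, AT1G64160, AT2G31110 and the most abundant transcripts. Alternatives changed the groups in the fit, the sample number as a block, the pseudocount, the filter, the scaling, array weights, the trend, a minimum fold and the libraries included.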

Additional observations from a re-analysis of the deposited data

How the results depend on the processing

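For gut contents against ants removed, 25 alternatives were run, 15 with at least 1 call and none with a call of a higher gene. The 8 called genes passed the threshold in 77 of their 198 results. Their direction was the same in all 198, which was close to fixed, since the 2 groups did not overlap in these genes. The count was 3 in the ant treatments and 8 am control alone, 0 in the 2 groups alone, 0 with samples 2 and 3 without ants as 1 library (also with the noon pair joined, or in the ant treatments and 8 am control alone), 4 with a pseudocount of 10, 5 with a mean of at least 50, 0 with quantile normalisation, 19 with array weights, 0 at 2-fold, 3 in the 3 replicated ant treatments, and 0 with the libraries numbered 1, or 2 and 3, left out. Leaving out each library in turn gave 0 to 9. A total of 22 genes were called in some fit, 14 of them not among the 8. The cause of these shifts was not tested.

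Sample numbers are shared by 2 pairs here and the labels do not say what a number stands for, so no pairing was assumed, although libraries numbered 1 resembled each other. Deviations from the group means correlated at 0.357 for number 1 and 0.281 for number 2, but at 0.319 for gut contents sample 2 with ants removed sample 3, and with 2 gut contents libraries their deviations mirror each other, so these values do not show a match by number. With the number as a replicate block, the 2 groups alone gave 3 calls and the 3 ant treatments 7. The block in the 3 ant treatments gave 3 calls for gut contents against Gracilis, and 0 in the 2 groups alone.

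For gut contents against 8 am (2702), the count was 4401 in the ant treatments and 8 am alone, 210 at 2-fold, 5161 without the 9 am and 3 pm groups, 971 without the libraries numbered 1, 936 without those numbered 2 and 3, and 920 to 2331 leaving out each library. For ants removed against 8 am (3368), it was 2134 with samples 2 and 3 as 1 library, 1816 with both near-identical pairs joined, 6963 with array weights, 284 at 2-fold, 5625 without 9 am and 3 pm, 468 without the libraries numbered 2 and 3, and 1955 to 2997 leaving out each library. Gut contents against Gracilis gave 0 to 1 leaving out each library. Quantile normalisation moved the share of higher calls from 41.4% to 55.5% and from 42.2% to 56.4% in the 2 comparisons with 8 am, with the median of all genes at 0.11 and 0.09. The suberin median ran from -2.30 to -2.02 over the scalings. Depth is unknown, which leaves low values without a counting error. The fits of the 3 replicated ant treatments, those without 9 am and 3 pm or without numbered libraries, the joined pair in the ant treatments and 8 am alone, and leaving out each 8 am or Gracilis library were chosen after seeing the data.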

Other observations

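Genes of the organelle genomes were higher with gut contents in sum, without a call and not in each sample number. Of 36 plastid genes tested, 32 were higher (7148 of 12264 over all genes), at a median log2 change of 1.17. The median was -0.28 between the libraries numbered 1 and 2.12 between those numbered 2. Summed plastid values were 4653 and 8567 with gut contents and 7107, 2247 and 2184 with ants removed. The 27 mitochondrial genes had a median of 0.60, with -0.24 and 1.04 by number, and summed to 8203 and 13153 against 11496, 8197 and 7660. The part of the sample number in this was not tested.

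Some genes of fast hormone and defence responses differed more between the gut contents libraries than between the treatments; they were picked after their values were seen. ERF4, an ethylene response factor, stood at 49366 in gut contents sample 1 and at 3721 in sample 2, with ants removed between them at 36378, 37649 and 35615. ACS6, an enzyme of ethylene synthesis, stood at 2847 and 315 against 1181, 1689 and 1751. The ubiquitin ligase PUB23 stood at 1820 and 88 against 642, 1041 and 972, the jasmonate repressor JAZ6 at 375 and 23 against 231, 168 and 227, and WRKY53 at 2255 and 380 against 925, 1283 and 1391. In these 5 genes the ants removed values all lay between the 2 gut contents values. That order follows in large part from their choice, and the share of all genes with it is not given. Gracilis sample 2 was the lowest of its group in each of the 5 genes, with ERF4 at 5455 beside 42970 and 29859 in samples 1 and 3.

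Among 37 peroxidase genes tested the median was -0.05, and peroxidase CA (AT3G49110) stood at 0 and 2 with gut contents against 5, 48 and 41 with ants removed (limma adjusted p = 0.790). The 32 WRKY genes had a median of -0.05, the 93 receptor-like kinases 0.10 and the 8 chitinases 0.07, with no call in any of them. The transcript families of ribosomal proteins (209 genes, median 0.04) and UDP-glycosyltransferases (49 genes, median 0.03) lay near the median of all genes, 0.03.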
